A study of Mus musculus with 35 samples.

Results

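Splenic type 1 conventional dendritic cells (cDC1) from mice lacking Mycl were compared with wild-type cDC1, both taken 5 h after the mice received poly IC. The comparison used the 10 arrays, of 35 in the study, whose titles place them in the activated Mycl set: 5 arrays from Mycl+/+ mice (WT) and 5 from MyclGFP/GFP mice (KO). All 10 arrays, the WT group included, came from mice given 100 µg of poly IC into the peritoneal cavity, so the groups differ in genotype and share the stimulus. Spleens were digested with collagenase B and DNase I, cDC1 were sorted by FACS, and total RNA was amplified for Affymetrix mouse whole-transcript arrays. The study also holds resting cDC1 with and without Mycl, used here for 1 comparison, and cDC1 lacking Mxd1, not analysed here. The labels call the 5 arrays of each group biological replicates. They do not say whether each array stands for a separate mouse, so the p-values measure the spread between these arrays, and they state neither age nor sex nor the structure of the MyclGFP allele.

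MYCL is a member of the MYC family of transcription factors, which bind DNA as dimers with MAX, often at the E-box CACGTG, and are known for driving genes of ribosome production, translation, nucleotide synthesis and metabolism. MXD proteins and MNT compete for MAX and are known as repressors at the same kind of site. cDC1 are the dendritic cells specialised in presenting antigen from other cells on MHC class I, and they are known for expressing Mycl. Poly IC, a synthetic double-stranded RNA, is sensed by TLR3 and by cytosolic RNA sensors and induces type I interferons, which in turn induce a large group of interferon-stimulated genes.

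The values are log2 levels per transcript cluster, normalised by the authors with RMA, and each gene is represented by its cluster of highest mean. A log2 difference of 1 is a 2-fold difference, and differences are given as KO minus WT throughout. Array medians lay between 5.47 and 5.53, so the values show the relative share of each transcript and not the RNA content of a cell. In sorted populations such as these, fewer cells with a transcript and less of it per cell cannot be told apart. The cDC1 label was checked against 10 markers. Clec9a lay between the 98.3 and 99.3 percentile of its array, Xcr1 between 96.3 and 98.9 and Irf8 between 98.8 and 99.6, on all 10 arrays. Batf3, Cadm1, Tlr3, Wdfy4 and Flt3 lay at the 92.9 percentile or higher. Zbtb46 lay between 75.7 and 84.1, and Itgae, encoding CD103, between 66.3 and 93.5, with a level of 7.89 ± 1.14 in WT and 6.80 ± 0.27 in KO (SD, n = 5 each). The size of the Itgae difference depended on the arrays used, as given below with the genes of cDC1 identity.

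Mycl itself read 9.66, 9.36, 9.03, 9.81 and 9.31 on WT arrays 1 to 5 and 5.84, 5.99, 8.87, 5.52 and 6.14 on KO arrays 1 to 5. KO array 3 stood at 8.87, close to the WT arrays, and the other 4 KO arrays lay between 5.52 and 6.14. All 5 KO values lay below all 5 WT values, and the difference was -2.96 ± 0.54 (SE, 5 against 5 arrays; limma, Benjamini-Hochberg adjusted p = 0.15). An exact two-sided permutation test over the 252 possible splits gave p = 0.00794 for this single gene, the smallest value the design allows. Without KO array 3, which was left out for its Mycl value, the difference was -3.56, given as a description with no test. The position of the Mycl cluster's probes relative to the MyclGFP allele was not used here, and the array is called by its label, KO array 3, throughout.

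A pair of WT arrays stood apart from the other 8. WT arrays 1 and 4 had low levels of interferon-stimulated genes: the median level of 47 tested genes of the type I interferon response was 7.98, 10.63, 10.55, 8.61 and 10.93 on WT arrays 1 to 5 and 11.14, 10.92, 10.71, 10.72 and 10.57 on KO arrays 1 to 5. WT arrays 2, 3 and 5 thus lay within or near the KO range and WT arrays 1 and 4 lay far below it. On the first principal component of the 10 arrays, which held 69.4% of the variance, WT array 1 scored -52.5 and WT array 4 -39.0, against 5.57 to 18.7 for the other 8 arrays. Ribosome biogenesis genes showed the opposite order, with a median level of 8.24, 7.33, 7.27, 8.07 and 7.26 on the WT arrays and 6.82, 7.18, 7.34, 7.25 and 7.06 on the KO arrays. How WT arrays 1 and 4 came to differ was not tested. Results are therefore given over all 10 arrays and over 7 arrays, leaving out WT arrays 1 and 4 and KO array 3. The 3 arrays were picked on measured levels, so the values of Mycl and of the interferon-stimulated genes over 7 arrays are a description only.

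**Figure D1:**
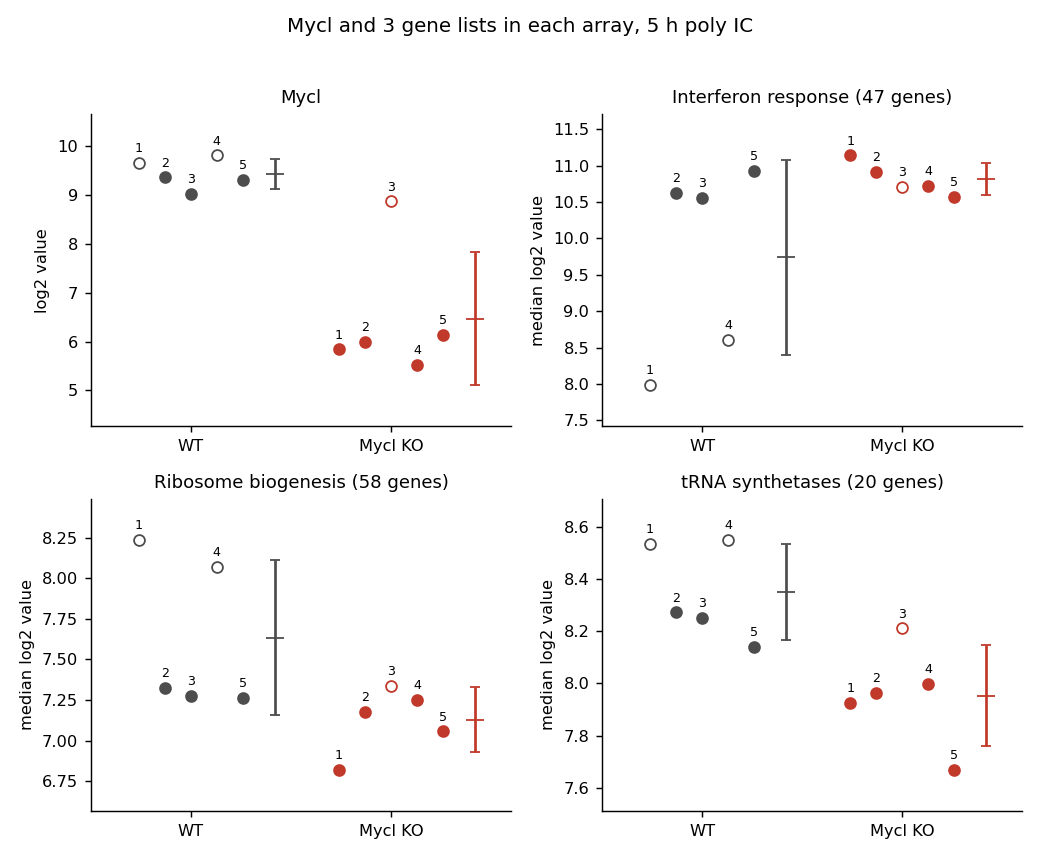
Log2 level of Mycl and the median log2 level of 3 gene lists on each array, with WT on the left and Mycl KO on the right of each panel; digits are array numbers, open points are the 3 arrays left out of the 7-array comparison, and bars are the mean and SD of all 5 arrays. WT arrays 1 and 4 are lowest for the interferon response (7.98 and 8.61) and highest for ribosome biogenesis (8.24 and 8.07), and KO array 3 lies at 8.87 for Mycl.

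Over all 10 arrays, 0 of 14033 genes (0%) passed the test at an adjusted p under 0.05 in limma, and an unadjusted p under 0.05 was found for 1992 (14.2%), 928 with higher and 1064 with lower KO values. In 500 genes (3.56%) the 5 KO values and the 5 WT values did not overlap. Over 7 arrays (3 WT and 4 KO), 63 genes (0.449%) passed, of which 39 (0.278%) rose and 24 (0.171%) fell in KO cDC1. Leaving out WT arrays 1 and 4 alone gave 11 genes, and leaving out KO array 3 alone gave 2, Tars and Mycl, the gene the array was left out for. Of the 63 genes, 59 had the same sign over all 10 arrays, where 52 had an unadjusted p under 0.05. The 4 with the opposite sign over 10 arrays were Idh1, Lima1, Efcab3 and Entpd1. In what follows, rose and fell refer to the 7-array test and carry this limit, and the 63 genes were picked out after their values were seen.

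The 3 arrays that were left out give a further reading of the 24 genes that fell and the 39 that rose. KO array 3 lay nearer to the mean of the 3 WT arrays than to the mean of the other 4 KO arrays in 16 of the 24 genes that fell (66.7%) and in 14 of the 39 that rose (35.9%). The corresponding shares over all genes with lower and higher KO values were 54.9% and 45.1%. KO array 3 also lay beyond the other 4 KO arrays, on the WT side, in 19 of the 24 (79.2%) and 27 of the 39 (69.2%). Over all genes with lower and higher KO values this held for 35.4% and 26.8%. In the remaining genes that fell, KO array 2 lay nearest to WT (5). In the remaining genes that rose, KO arrays 1, 2 and 4 did (5, 3 and 4). The genes were picked without KO array 3, so these shares are a description only. Mycl, for which KO array 3 was left out, is among the 24. WT array 1 lay nearer to the WT than to the KO mean in 18 of 24 and 28 of 39 genes, and WT array 4 in 17 of 24 and 30 of 39. For all genes tested these shares were 60.3% and 56.4% for WT array 1 and 61.8% and 50.6% for WT array 4.

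Genes that load amino acids onto tRNA lay lower in KO cDC1. Of 20 tested aminoacyl-tRNA synthetase genes, 19 had lower KO values both over 10 arrays (median difference -0.39) and over 7 arrays (-0.23), against medians of -0.0012 and 0.0041 over all genes. Of these, 3 fell over 7 arrays: Tars, Iars and Yars, the threonyl-, isoleucyl- and tyrosyl-tRNA synthetases. An unadjusted p under 0.05 was found for 12 over 10 arrays and 13 over 7, all lower, where 7.58% and 5.17% of all genes had such a p with a lower KO value and 0.171% fell. Tars read 7.54, 7.43, 7.34, 7.66 and 7.14 on WT arrays 1 to 5 and 6.23, 6.41, 7.31, 6.48 and 6.03 on KO arrays 1 to 5. KO array 3 lay within the WT range and the other 4 KO arrays lay below it. The difference was -0.93 ± 0.21 over 10 arrays (limma, adjusted p = 0.217) and -1.02 ± 0.11, a 2.03-fold fall, over 7 (adjusted p = 0.00624). Iars had levels of 9.52, 8.71, 8.85, 9.41 and 8.64 on WT arrays 1 to 5 and 8.04, 8.09, 8.65, 8.13 and 8.07 on KO arrays 1 to 5. Again KO array 3 was the highest KO array, and it overlapped the lowest WT value. Iars fell by 0.65 on the log2 scale over 7 arrays (limma, adjusted p = 0.00766) and differed by -0.83 ± 0.19 over 10 (adjusted p = 0.22). For Yars the levels were 7.03, 7.0, 6.89, 7.31 and 6.79 on WT arrays 1 to 5 and 6.27, 6.18, 6.85, 6.56 and 6.38 on KO arrays 1 to 5. The Yars difference was -0.56 over 10 arrays (limma, adjusted p = 0.229) and -0.55 over 7 (adjusted p = 0.0379), with KO array 3 once more inside the WT range. Lars, the leucyl-tRNA synthetase, lay lower by a similar amount without passing (-0.53 over 7 arrays, limma, adjusted p = 0.0574).

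Aldh18a1, which makes the proline precursor pyrroline-5-carboxylate, read 7.34, 6.92, 6.96, 7.55 and 6.88 on WT arrays 1 to 5 and 6.37, 6.53, 6.79, 6.48 and 6.47 on KO arrays 1 to 5. All KO values lay below all WT values. It fell over 7 arrays (-0.45 ± 0.07, limma, adjusted p = 0.0309) and differed by -0.60 over 10 (adjusted p = 0.22). It was the 1 member to pass among 22 tested amino acid stress genes known as targets of ATF4. That list's median was 0.08 over 10 and 0.05 over 7 arrays, and its member of smallest p over 10 arrays, Sesn2, a stress-induced inhibitor of mTORC1 signalling, lay higher in KO (0.49, limma, adjusted p = 0.211; 0.48 over 7 arrays, adjusted p = 0.098).

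The 250 bases before the start of these genes were read from RefSeq promoters of build GRCm38.p6 and searched on both strands for CACGTG, the E-box of MYC and MAX dimers, for TGATGCAA, a form of the element that ATF4 binds in amino acid response genes, and for GAAA, any 2 bases and GAAA again, a core of the element that interferon-activated factors bind. Shares are per gene with a promoter found, and a gene was counted if any of its promoters held the letters. CACGTG was present for 5 of the 22 such genes that fell (22.7%) and for 0 of the 28 that rose. Over all genes tested it was present for 9.23% of 11121. The 5 genes were Iars, Aldh18a1, Thrap3, Zmym6 and Firre. They are printed below to show where the letters lie, together with Tars, the synthetase of largest fall, picked because its promoter holds TGATGCAA. These letters were found for 1 of the 22 genes that fell (4.55%), Tars itself, and for 0 of the 28 that rose. Among 13 synthetase genes with a promoter 1 held them, and the share over all genes tested with a promoter was 0.692%. Each runs 5′ to 3′ on the gene's strand and ends at the base before the start, with the matched letters, on either strand, in capitals.
Tars: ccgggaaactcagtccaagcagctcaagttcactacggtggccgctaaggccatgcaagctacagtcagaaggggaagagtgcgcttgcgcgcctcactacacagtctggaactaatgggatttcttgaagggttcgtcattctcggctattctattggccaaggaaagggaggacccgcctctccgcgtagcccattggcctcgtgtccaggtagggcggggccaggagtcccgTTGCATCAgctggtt
Iars: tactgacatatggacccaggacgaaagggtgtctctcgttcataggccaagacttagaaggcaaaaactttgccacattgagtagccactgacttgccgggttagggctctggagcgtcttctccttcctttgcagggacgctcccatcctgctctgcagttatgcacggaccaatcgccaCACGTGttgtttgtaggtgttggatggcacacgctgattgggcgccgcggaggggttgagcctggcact
Aldh18a1: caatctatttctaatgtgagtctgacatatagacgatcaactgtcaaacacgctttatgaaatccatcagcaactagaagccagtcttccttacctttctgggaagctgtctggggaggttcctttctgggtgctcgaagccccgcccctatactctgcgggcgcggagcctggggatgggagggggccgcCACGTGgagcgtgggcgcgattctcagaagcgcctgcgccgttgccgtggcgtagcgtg
Thrap3: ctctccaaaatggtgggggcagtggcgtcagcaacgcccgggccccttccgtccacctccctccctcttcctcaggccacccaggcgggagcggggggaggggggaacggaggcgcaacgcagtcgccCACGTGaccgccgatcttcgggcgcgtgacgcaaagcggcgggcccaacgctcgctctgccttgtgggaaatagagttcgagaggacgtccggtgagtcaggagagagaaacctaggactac
Zmym6: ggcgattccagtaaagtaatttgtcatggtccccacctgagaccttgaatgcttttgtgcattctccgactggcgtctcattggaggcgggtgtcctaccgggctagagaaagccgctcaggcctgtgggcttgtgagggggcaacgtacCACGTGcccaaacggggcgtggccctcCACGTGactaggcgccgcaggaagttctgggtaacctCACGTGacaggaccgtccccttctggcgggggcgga
Firre: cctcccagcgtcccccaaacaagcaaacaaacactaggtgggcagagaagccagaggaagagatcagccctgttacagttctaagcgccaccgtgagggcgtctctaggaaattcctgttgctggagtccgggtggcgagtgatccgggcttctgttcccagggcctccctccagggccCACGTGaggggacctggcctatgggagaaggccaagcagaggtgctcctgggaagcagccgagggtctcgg
The windows are chr15:11399659-11399908, minus strand for Tars; chr13:49681880-49682129, plus strand for Iars; chr19:40588464-40588713, minus strand for Aldh18a1; chr4:126202711-126202960, minus strand for Thrap3; chr4:127077133-127077382, plus strand for Zmym6 and chrX:50635322-50635571, minus strand for Firre. Counted from the start, the first base of the match lies at -15 in Tars, -69 in Iars, -59 in Aldh18a1, -122 in Thrap3 and -71 in Firre, and Zmym6 holds 3 matches. These matches describe letters only and do not show binding. CACGTG was also present for 2 of 13 synthetase genes (15.4%) and for 5 of 50 ribosome biogenesis genes (10.0%) with a promoter, the latter near the share over all genes.

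Ribosome biogenesis genes had lower KO values as a group, and the size depended on the WT arrays. All 58 tested members lay lower over 10 arrays (median -0.47), 32 with an unadjusted p under 0.05, where 7.58% of all genes had such a p with a lower KO value. In 8 of the 58 the groups did not overlap, against 1.65% of all genes with lower and separate KO values. Over 7 arrays 49 of 58 lay lower, the median was -0.18, 26 had an unadjusted p under 0.05 with a lower KO value (5.17% of all genes), and none passed adjustment in limma. Nmd3, the export adaptor of the large subunit, read 9.49, 9.23, 9.14, 9.50 and 9.12 on WT arrays 1 to 5 and 8.67, 8.97, 9.02, 9.05 and 8.92 on KO arrays 1 to 5. The KO and WT values did not overlap, and the difference was -0.37 over 10 arrays (limma, adjusted p = 0.282) and -0.26 over 7 (adjusted p = 0.324). Rpf2, an assembly factor of the large subunit's 5S particle, had levels of 7.45, 6.99, 6.82, 7.70 and 6.72 on WT arrays 1 to 5 and 6.23, 6.47, 6.84, 6.46 and 6.38 on KO arrays 1 to 5. Most of its 10-array difference of -0.66 remained over 7 arrays (-0.46, limma, adjusted p = 0.0574). Tsr1, a factor of small subunit maturation, lay lower by more than any other member (-0.99 over 10 arrays and -0.60 over 7, limma, adjusted p = 0.285 and 0.111). Nop2, Gtpbp4 and Npm1, all nucleolar factors, had 7-array differences of -0.43, -0.44 and -0.30, none of which passed.

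Small nucleolar RNAs, which guide the chemical modification of ribosomal RNA and are mostly made from introns, showed the same direction. This group of 43 tested clusters was formed after the values were seen. Of these, 38 lay lower over 10 arrays (median -0.33) and 35 over 7 (median -0.20). Snord38a read 6.64, 6.21, 5.82, 6.74 and 5.64 on WT arrays 1 to 5 and 5.19, 5.06, 5.56, 5.19 and 5.32 on KO arrays 1 to 5. Its KO and WT values did not overlap, and it fell over 7 arrays (-0.70 ± 0.12, limma, adjusted p = 0.0337; over 10 arrays -0.94, adjusted p = 0.197). Snhg16, the spliced host RNA of other snoRNAs, had levels of 6.62, 6.08, 6.08, 6.73 and 5.84 on WT arrays 1 to 5 and 5.33, 5.40, 5.91, 5.57 and 5.27 on KO arrays 1 to 5. It fell by 0.61 over 7 arrays (limma, adjusted p = 0.0308), while KO array 3 lay within the WT range.

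Cytosolic ribosomal protein genes differed little in size and uniformly in sign. Of 54 tested members, 53 lay lower over 10 arrays (median -0.14) and all 54 over 7 arrays (median -0.13), and none passed. Rps18 read 12.19, 12.09, 12.07, 12.22 and 12.04 on WT arrays 1 to 5 and 11.91, 11.80, 12.07, 11.84 and 11.79 on KO arrays 1 to 5. The difference was -0.24 over 10 arrays and -0.23 over 7 (limma, adjusted p = 0.285 and 0.232), and only KO array 3 entered the WT range. Rpl28 differed by -0.23 and -0.25 in the same way (limma, adjusted p = 0.287 and 0.243). Near-identical pseudogene copies of ribosomal protein genes can share probes, so these levels are uncertain.

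Other parts of the growth machinery had medians nearer 0 without the 3 arrays. Translation factors lay lower in 35 of 38 genes over 10 arrays (median -0.26) and in 30 over 7 (-0.13). Eif3a, a subunit of the initiation factor that recruits the small ribosomal subunit, read 9.15, 8.78, 8.52, 9.24 and 8.62 on WT arrays 1 to 5 and 8.16, 8.39, 8.46, 8.48 and 8.25 on KO arrays 1 to 5, with no overlap. Its difference was -0.51 over 10 arrays and -0.32 over 7 (limma, adjusted p = 0.282 and 0.232), and Eef2, the translocation factor, differed by -0.37 and -0.25 (adjusted p = 0.288 and 0.333). For the machinery of RNA polymerases I and III the medians were -0.21 and -0.04 over 21 genes. Taf1a, a subunit of the RNA polymerase I promoter factor, differed by -0.78 over 10 arrays and -0.49 over 7, and Brf1, the RNA polymerase III factor, by -0.33 and -0.23 (limma, adjusted p = 0.263, 0.125, 0.22 and 0.304). Nucleotide and one-carbon genes had medians of -0.24 and -0.02 over 31 genes, with Adsl, an enzyme of purine synthesis, at -0.48 and -0.34 and Ctps, the CTP synthase, at -0.52 and -0.22, none past the test. Mitochondrial translation and chaperonin genes had medians of -0.17 and -0.05 over 44 genes, and their members of smallest p, Timm10 (-0.53 and -0.36) and Mrpl13 (0.21 and 0.09), differed in sign.

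**Figure D2:**
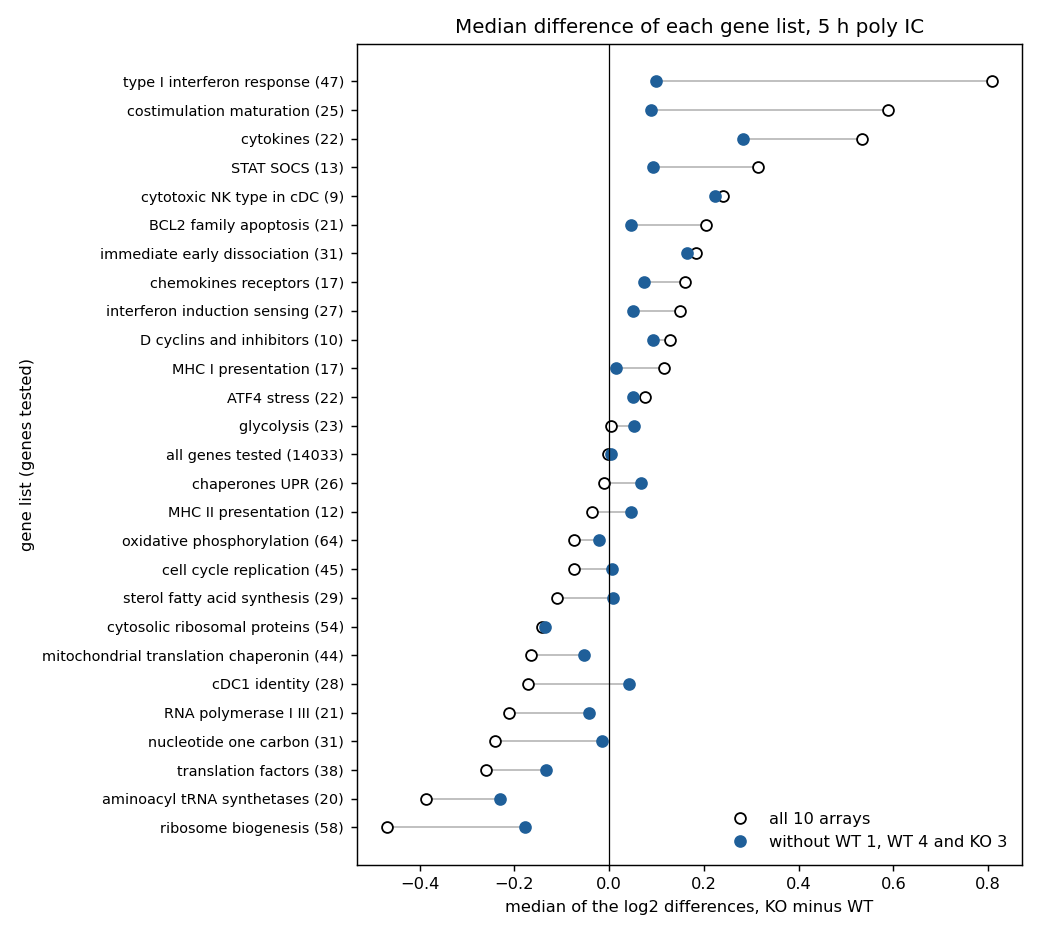
Median of the log2 differences (KO minus WT, horizontal axis) of each gene list, with the number of genes tested in brackets; open points use all 10 arrays and filled points the 7 arrays without WT arrays 1 and 4 and KO array 3. The interferon response moves from 0.81 to 0.10 and ribosome biogenesis from -0.47 to -0.18, while cytosolic ribosomal proteins stay at -0.14 and -0.13.

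Further genes that fell were of varied function. Adam23, a membrane protein of the disintegrin family, had the smallest p over 10 arrays and read 10.11, 9.90, 9.81, 9.89 and 9.77 on WT arrays 1 to 5 and 9.02, 9.45, 9.17, 9.20 and 9.06 on KO arrays 1 to 5. The groups were well separated, with the highest KO value 9.45 and the lowest WT value 9.77. The difference was -0.72 ± 0.09 over 10 arrays, a 1.64-fold lower level (limma, adjusted p = 0.106), and -0.64 over 7 (adjusted p = 0.0309). Firre, a long noncoding RNA of the X chromosome, had levels of 8.23, 7.87, 8.01, 8.08 and 8.06 on WT arrays 1 to 5 and 7.37, 7.60, 7.71, 7.58 and 7.27 on KO arrays 1 to 5, also without overlap, and differed by -0.54 (limma, adjusted p = 0.15; -0.52 and 0.0421 over 7). Zmym6, a zinc finger protein, and Thrap3, a protein of splicing and transcription, separated in the same manner (-0.34 and -0.51 over 10 arrays, limma, adjusted p = 0.15 and 0.106; -0.40 and -0.47 over 7, adjusted p = 0.0338 and 0.0337). Aldh1a2, which makes retinoic acid, read 5.74, 7.13, 6.66, 5.99 and 7.14 on WT arrays 1 to 5 and 6.26, 6.28, 6.69, 6.35 and 5.98 on KO arrays 1 to 5. It fell over 7 arrays (-0.76 ± 0.13, limma, adjusted p = 0.0337), but WT arrays 1 and 4 lay at or below the KO level, so that the 10-array difference was -0.22 (adjusted p = 0.699). Tgfbi, a secreted matrix protein, fell by 0.55 over 7 arrays (limma, adjusted p = 0.0337) and differed by -0.77 over 10 (adjusted p = 0.252), and Flt1, a receptor of vascular endothelial growth factor, fell by 0.39 (adjusted p = 0.0421; -0.64 and 0.279 over 10). The remaining genes that fell were Alg8, Bola2, Dclk2, Dennd2d, Efcab3, Idh1, Lima1, Rtcb and Scai, with 7-array differences of -0.54 to -0.42. Over 10 arrays Alg8, Bola2, Dennd2d, Rtcb and Scai lay at -0.84, -0.60, -0.67, -0.79 and -0.28, Dclk2 at -0.13, and Efcab3, Idh1 and Lima1 at 0.08, 0.09 and 0.20, none past the test. Of the genes of smallest p on the lower side over 10 arrays, Pcsk5, Mir3068 and Ms4a1 did not pass over 7. Pcsk5, a proprotein convertase, lay at -0.44 and -0.42 (limma, adjusted p = 0.15 and 0.065). The cluster of Mir3068 lay at -0.58 and -0.51 (limma, adjusted p = 0.15 and 0.0637), and Ms4a1 at -0.48 and -0.38.

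**Figure D3:**
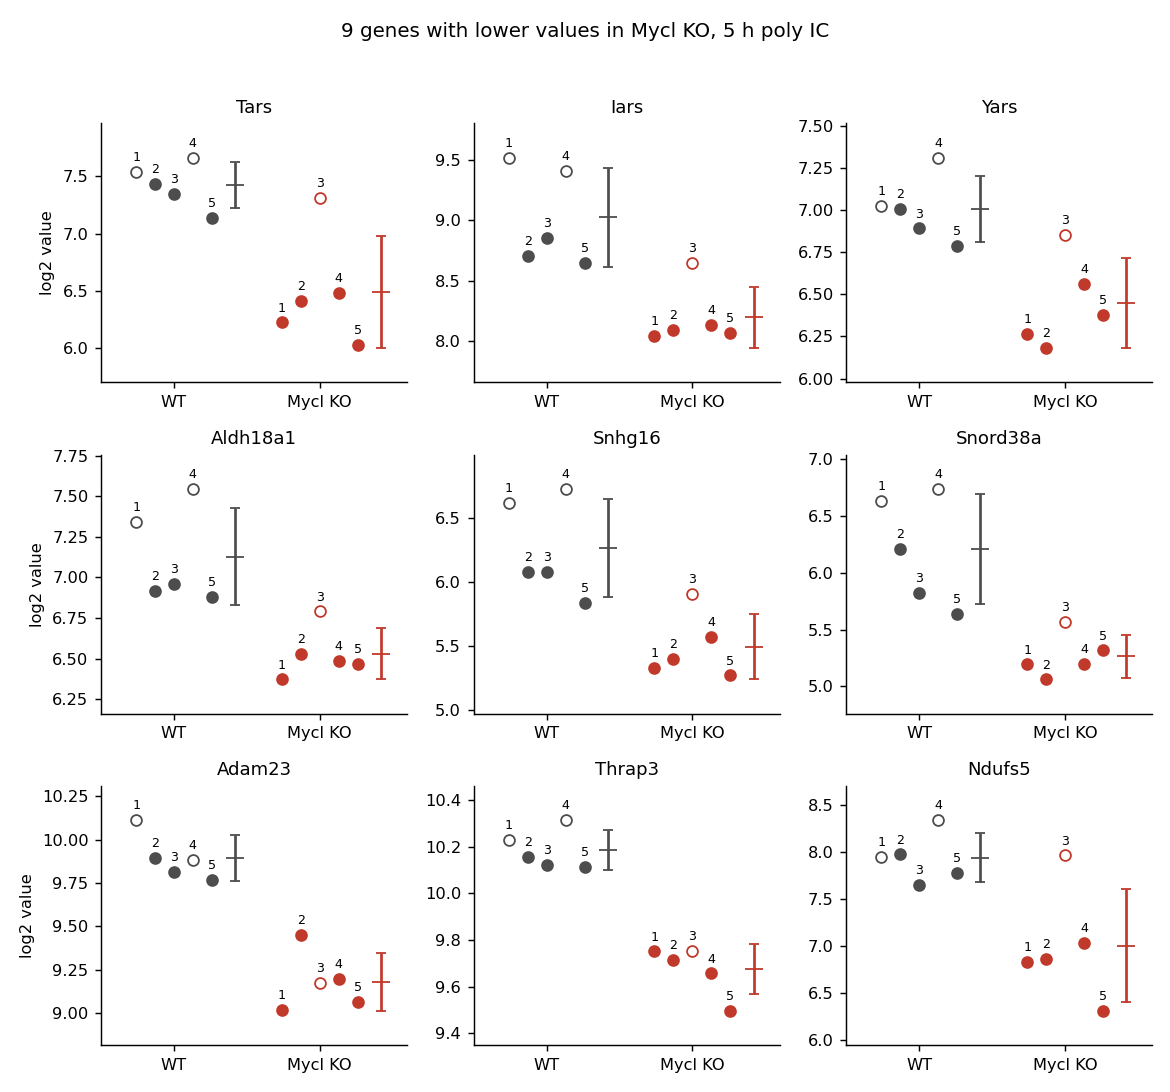
Log2 level of 9 genes with lower KO values on each array, with WT on the left and Mycl KO on the right; digits are array numbers, open points are the 3 arrays left out of the 7-array comparison, and bars are the mean and SD of all 5 arrays. In Tars, Iars, Yars, Snhg16 and Ndufs5 the open KO point (array 3) is the highest of its group, and in Adam23 and Thrap3 the groups do not overlap.

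Some of the genes near Mycl on its chromosome passed over 7 arrays, and how their share compares with the rest is given as a description. Of the 40 tested genes on each side of Mycl in the RefSeq order, 4 of 80 passed over 7 arrays (5%), against 11 of 894 on the whole chromosome without Mycl (1.23%) and 51 of 13138 on other chromosomes (0.388%). Over 10 arrays, 16 of the 80 (20%) had an unadjusted p under 0.05, against 14.1% on other chromosomes. Ndufs5, a subunit of respiratory complex I and the ninth tested gene from Mycl, read 7.95, 7.97, 7.65, 8.34 and 7.78 on WT arrays 1 to 5 and 6.83, 6.87, 7.96, 7.03 and 6.31 on KO arrays 1 to 5. KO array 3 lay within the WT range and the other 4 KO arrays lay below all WT arrays. For Mycl, KO array 3 was likewise the highest KO array, but it lay below all WT arrays. Ndufs5 fell by 1.04 over 7 arrays (limma, adjusted p = 0.0211) and differed by -0.94 ± 0.26 over 10 (adjusted p = 0.279). Smap2, an ARF GTPase activator and the seventh tested gene on the other side, had levels of 8.92, 9.01, 8.84, 8.60 and 8.98 on WT arrays 1 to 5 and 9.45, 9.46, 9.18, 9.48 and 9.28 on KO arrays 1 to 5. It rose by 0.47 over 7 arrays (limma, adjusted p = 0.0337) without overlap over 10. The other 2 were Thrap3, which fell, and Slc2a1, which rose. The remaining genes of this chromosome to pass were Yars, Zmym6 and Snord38a, which fell, and Bend5, Fgr, Hyi and Lrp8, which rose. Whether sequence carried along with the MyclGFP allele bears on these genes cannot be told apart from the genotype in this design.

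Among metabolic genes, both glucose transporters of the glycolysis list rose while the enzymes did not pass. Slc2a1, encoding the transporter GLUT1, read 8.69, 8.70, 8.43, 8.49 and 8.69 on WT arrays 1 to 5 and 9.14, 9.11, 8.86, 9.05 and 9.17 on KO arrays 1 to 5. The groups did not overlap, and the difference was 0.47 ± 0.08 over 10 arrays (limma, adjusted p = 0.15) and 0.51 over 7 (adjusted p = 0.0337). Slc2a3, encoding GLUT3, had levels of 6.32, 6.11, 6.21, 6.31 and 6.27 on WT arrays 1 to 5 and 6.56, 6.67, 6.39, 6.83 and 6.69 on KO arrays 1 to 5. It rose by 0.49 over 7 arrays (limma, adjusted p = 0.0337) and lay higher by 0.38 over 10 (adjusted p = 0.211). The 23 tested glycolysis genes had medians of 0.00 over 10 and 0.05 over 7 arrays. Txnip, an inhibitor of glucose uptake, rose over 7 arrays (0.52, limma, adjusted p = 0.0362) and lay at 0.26 over 10 (adjusted p = 0.414). Oxidative phosphorylation genes had medians of -0.07 and -0.02 over 64 genes, and Ndufs5 was the 1 member to pass. Atp5g2, a subunit of ATP synthase, lay at -0.29 and -0.20. Sterol and fatty acid synthesis genes had medians of -0.11 and 0.01 over 29 genes, with Fasn, the fatty acid synthase, at -0.76 over 10 and -0.17 over 7 arrays and Acaca, acetyl-CoA carboxylase, at -0.47 and -0.12. Nnt, a mitochondrial proton pump that makes NADPH and is known to carry a deletion in the C57BL/6J substrain, read 6.0, 5.98, 5.56, 6.27 and 5.68 on WT arrays 1 to 5 and 6.72, 6.19, 6.80, 6.73 and 6.44 on KO arrays 1 to 5. It rose over 7 arrays (0.78 ± 0.14, limma, adjusted p = 0.0366; 0.68 and 0.217 over 10), and the labels do not state the substrain of the mice.

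The MYC and MAX network other than Mycl held no gene that passed over 10 or 7 arrays. Myc, the family member that binds the same sites, read 6.46, 6.62, 6.73, 6.68 and 6.77 on WT arrays 1 to 5 and 7.28, 6.98, 6.82, 7.0 and 7.16 on KO arrays 1 to 5. All KO values lay above all WT values, though narrowly, and the difference was 0.40 ± 0.10 over 10 arrays (limma, adjusted p = 0.229) and 0.40 over 7 (adjusted p = 0.098). Mxd1, a MAX partner and repressor, read 8.86, 10.49, 10.46, 9.14 and 10.76 on WT arrays 1 to 5 and 10.63, 10.76, 10.50, 10.55 and 10.58 on KO arrays 1 to 5, with WT arrays 1 and 4 low. The Mxd1 difference was 0.66 over 10 arrays and 0.06 over 7 (limma, adjusted p = 0.381 and 0.881). Max, the shared partner, lay at 0.15 and 0.01, and the other 9 tested members (Mycn, Mxi1, Mxd3, Mxd4, Mnt, Mga, Mlx, Mlxip and Mlxipl) lay between -0.20 and 0.05 over 10 arrays. Several of these small values, among them Max over 8 arrays without WT arrays 1 and 4, changed sign with the arrays used. Cell cycle and replication genes had medians of -0.07 and 0.01 over 45 genes, with Cdc20 at -0.33 and -0.31 and Rfc3 at 0.34 and 0.12. Among 10 D cyclin and inhibitor genes, Ccnd3, a cyclin of the G1 phase, read 7.55, 8.08, 7.81, 7.68 and 8.03 on WT arrays 1 to 5 and 8.37, 8.17, 8.36, 8.34 and 8.29 on KO arrays 1 to 5, without overlap and without passing (0.48 over 10 and 0.32 over 7 arrays, limma, adjusted p = 0.187 and 0.179). Ccnd2, its paralogue, lay at 1.27 over 10 arrays and 0.23 over 7, since WT arrays 1 and 4 stood at 9.48 and 9.64 and the other 8 arrays at 12.11 or more.

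Of the genes that rose, Gzmb had the smallest p over 10 arrays on the higher side. Gzmb, the cytotoxic protease granzyme B, read 4.99, 5.42, 5.52, 5.24 and 6.02 on WT arrays 1 to 5 and 6.68, 6.66, 6.35, 6.45 and 6.44 on KO arrays 1 to 5. No KO value reached down to the highest WT value of 6.02, and the difference was 1.08 ± 0.16, a 2.11-fold higher level, over 10 arrays (limma, adjusted p = 0.121). Over 7 arrays it rose by 0.91 (adjusted p = 0.0226). Ctsc, the cathepsin that activates granzymes by removing a dipeptide, had levels of 9.11, 9.10, 9.03, 8.82 and 9.13 on WT arrays 1 to 5 and 9.51, 9.62, 9.45, 9.46 and 9.67 on KO arrays 1 to 5. It rose by 0.48 over 7 arrays (limma, adjusted p = 0.0337) and lay 0.50 higher over 10 without overlap (adjusted p = 0.121). Within the 9 tested cytotoxic and NK-type genes, medians were 0.24 and 0.22. Cd226, an activating receptor, lay higher by 0.66 and Klrd1, a lectin-like receptor subunit, by 0.65 over 10 arrays without passing (limma, adjusted p = 0.229 and 0.252), while Prf1, the pore protein perforin, lay at -0.05.

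Of the chemokines, Ccl4, which attracts lymphocytes and myeloid cells, read 7.70, 8.16, 8.01, 7.93 and 8.20 on WT arrays 1 to 5 and 8.64, 8.98, 8.65, 8.59 and 9.03 on KO arrays 1 to 5. The KO values began above the highest WT value, and the difference of 0.78 ± 0.12 over 10 arrays (limma, adjusted p = 0.121) became 0.69 over 7, where it passed (adjusted p = 0.0337). Ccl3, an inflammatory chemokine of the same family, had levels of 8.29, 9.05, 9.14, 8.83 and 8.97 on WT arrays 1 to 5 and 9.64, 10.08, 9.59, 9.47 and 10.31 on KO arrays 1 to 5. These did not overlap either, with a difference of 0.96 over 10 and 0.82 over 7 arrays, but Ccl3 did not pass (limma, adjusted p = 0.161 and 0.0615). The list of 17 chemokine and receptor genes had medians of 0.16 and 0.07. Ccr7, the receptor that takes activated dendritic cells to lymph nodes, lay at 0.52 over 10 and -0.01 over 7 arrays.

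Several receptors and signalling proteins rose over 7 arrays. Fcer1g, the signalling chain shared by Fc receptors, read 8.14, 8.95, 9.10, 8.62 and 9.02 on WT arrays 1 to 5 and 10.09, 9.67, 9.56, 9.66 and 10.05 on KO arrays 1 to 5. Its groups did not overlap, and it was 1.04 ± 0.18 higher over 10 arrays (limma, adjusted p = 0.15) and 0.85 over 7 (adjusted p = 0.018). Il2ra, the alpha chain of the interleukin-2 receptor, had levels of 5.37, 5.71, 6.04, 5.30 and 6.53 on WT arrays 1 to 5 and 7.03, 7.50, 6.68, 6.79 and 7.08 on KO arrays 1 to 5. It showed the largest rise over 7 arrays, 1.01 ± 0.19 or 2.01-fold (limma, adjusted p = 0.0421), and 1.22 over 10 (adjusted p = 0.153). Cish, an inhibitor of cytokine receptor signalling induced by STAT5, rose by 0.55 over 7 arrays (limma, adjusted p = 0.0337; 0.83 and 0.229 over 10) and was the 1 member to pass among 13 STAT and SOCS genes, whose medians were 0.31 and 0.09. The call for Cish is a description only, since WT arrays 1 and 4 read lowest for it (5.42 and 5.59). Socs3 lay at 0.45 over 10 and 0.37 over 7 arrays (limma, adjusted p = 0.229 and 0.128). Ctla4, an inhibitory receptor for CD80 and CD86, read 7.32, 7.09, 6.68, 7.36 and 6.89 on WT arrays 1 to 5 and 7.4, 7.85, 7.48, 7.39 and 7.54 on KO arrays 1 to 5 and rose by 0.66 over 7 arrays (limma, adjusted p = 0.0464; 0.46 and 0.287 over 10). Plau, the protease urokinase, read 5.05, 5.52, 5.43, 5.06 and 5.47 on WT arrays 1 to 5 and 5.89, 6.46, 6.01, 6.28 and 6.05 on KO arrays 1 to 5, without overlap. The rise of Plau over 7 arrays was 0.70 (limma, adjusted p = 0.0337) and its difference over 10 was 0.83 (adjusted p = 0.121). Fgr, a kinase of the SRC family, rose by 0.61 over 7 arrays with an adjusted p of 0.00624 in limma, but lay at 0.27 over 10 (adjusted p = 0.481), since WT array 1 read 7.91, above every KO array.

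Further genes that rose were Plk2, a stress-induced kinase (0.86 over 7 arrays), Lrp8, an apolipoprotein E receptor (0.73), Gdf11, a ligand of the TGF-beta family (0.70), Kdr, a receptor of vascular endothelial growth factor (0.61), and the drug exporter Abcb1a (0.70), with adjusted p-values of 0.018 to 0.042 in limma. Their 10-array differences were 1.10, 0.94, 0.88, 1.23 and 0.61, in that order, none past the test. WT arrays 1 and 4 read lowest of the WT arrays for all of these but Abcb1a. For Kdr they read 6.50 and 6.32, against 7.96 or more on the other WT arrays, so its call is a description only. Arrdc3, Atrnl1, Bend5, Cd300a, Emb, Emp1, Emp3, Entpd1, Gcnt2, Gpr18, Hyi, Klf10, Mest, Tgm2 and the noncoding AI504432 completed the set, with 7-array differences of 0.41 to 0.67. Over 10 arrays none passed; Entpd1 lay at -0.25, Emb at 0.10, Cd300a at 0.18 and Gcnt2 at 0.20, and the other 11 between 0.33 (Klf10) and 0.81 (Atrnl1). Of the 8 genes of smallest p on the higher side over 10 arrays, 3 did not pass over 7: Klf11, a repressor of the SP and KLF family (0.39 and 0.34), Ints12, a subunit of the Integrator complex (0.44 and 0.34), and 5430427O19Rik (0.37 and 0.36), with 7-array adjusted p-values of 0.116, 0.115 and 0.065.

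**Figure D4:**
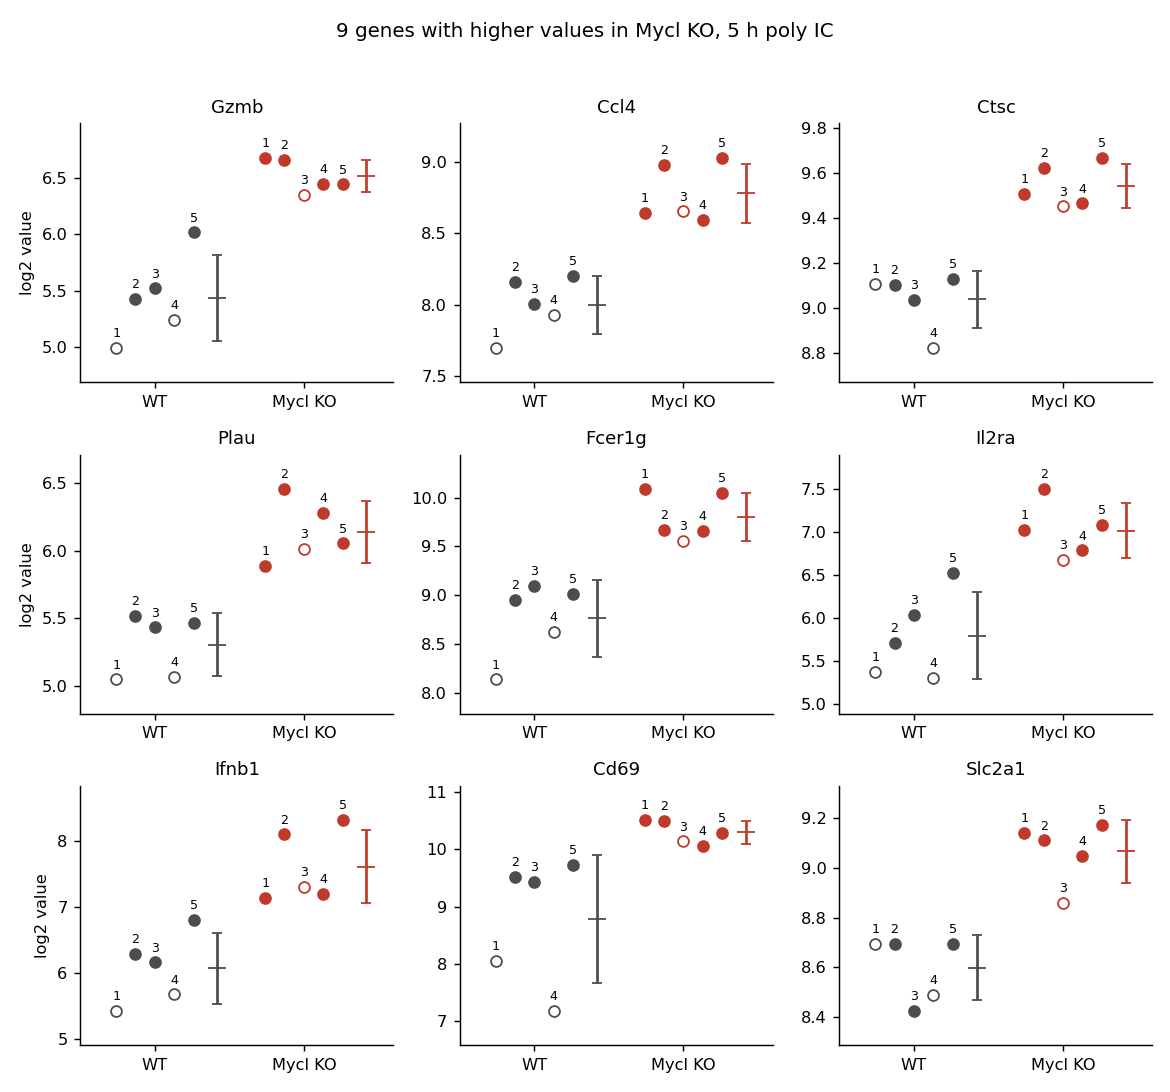
Log2 level of 9 genes with higher KO values on each array, with WT on the left and Mycl KO on the right; digits are array numbers, open points are the 3 arrays left out of the 7-array comparison, and bars are the mean and SD of all 5 arrays. In all 9 genes the 5 KO arrays lie above the 5 WT arrays, and the gap is smallest of the 9 for Il2ra (6.68 against 6.53) and Slc2a1 (8.86 against 8.70).

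Of 10 tested type I interferon genes, 7 lay higher in KO over 10 arrays and 9 over 7. Ifnb1, encoding interferon beta, read 5.43, 6.28, 6.16, 5.67 and 6.80 on WT arrays 1 to 5 and 7.13, 8.09, 7.30, 7.19 and 8.31 on KO arrays 1 to 5. The groups did not overlap, KO arrays 2 and 5 were highest, and the difference was 1.54 ± 0.30 over 10 arrays and 1.27 ± 0.27 over 7, neither of which passed (limma, adjusted p = 0.153 and 0.0723). Ifna2, an interferon alpha gene, had levels of 5.44, 5.83, 5.97, 5.17 and 5.86 on WT arrays 1 to 5 and 6.50, 7.78, 6.67, 6.90 and 8.02 on KO arrays 1 to 5. It was separated in the same way, at 1.52 over 10 and 1.41 over 7 arrays (limma, adjusted p = 0.153 and 0.0627). Among the 10 genes, grouped after their values were seen and sharing sequence closely enough that probes may not tell the alpha genes apart, 5 had KO values above all WT values (Ifnb1, Ifna2, Ifna4, Ifna5 and Ifna14), where 1.91% of all genes did. Ifna16 (-0.01), Ifnab (-0.03) and Ifne (-0.10) had lower KO values over 10 arrays. The median difference was 0.54 over 10 and 0.45 over 7 arrays. Over the 27 tested genes of interferon induction and RNA sensing the medians were 0.15 and 0.05.

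For interferon-stimulated genes the values over 7 arrays are a description only. WT arrays 1 and 4 were left out for their low levels of these genes, which by itself makes the difference smaller. All 47 tested genes lay higher over 10 arrays (median 0.81), 7 of them with an unadjusted p under 0.05, where 6.61% of all genes had such a p with a higher KO value. Over 7 arrays 38 of 47 lay higher with a median of 0.10. Ifit1, an antiviral RNA-binding protein with the largest spread of the list, read 6.09, 10.83, 10.82, 7.29 and 11.25 on WT arrays 1 to 5 and 11.55, 11.30, 10.96, 10.93 and 11.25 on KO arrays 1 to 5. WT arrays 1 and 4 stood far below the other 8 arrays, and the difference of 1.94 over 10 arrays (limma, adjusted p = 0.361) was 0.29 over 7. Rsad2 and Rtp4, both antiviral genes, went from 1.66 and 1.71 to 0.29 and 0.31. Iigp1, an interferon-inducible GTPase, had levels of 5.85, 7.65, 7.43, 5.70 and 7.96 on WT arrays 1 to 5 and 8.84, 8.32, 8.25, 8.19 and 7.99 on KO arrays 1 to 5. Its KO values all lay above the highest WT value, by little on KO array 5. It kept the largest 7-array difference of the list, 0.65 (1.4 over 10, limma, adjusted p = 0.288). Cxcl10, an interferon-induced chemokine, lay at 1.33 over 10 arrays (limma, adjusted p = 0.32) and at 0.40 over 7. Ifi27l2a, a further interferon-inducible gene outside the list, read 7.09, 9.43, 9.26, 8.73 and 9.23 on WT arrays 1 to 5 and 9.79, 10.15, 10.27, 10.31 and 10.10 on KO arrays 1 to 5. It lay 1.38 higher over 10 arrays (limma, adjusted p = 0.282) and 0.78 higher over 7. It is counted among the genes that rose over 7 arrays. WT arrays 1 and 4 read lowest for it as well, so that call is a description only.

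The promoter of Ifit1 shows the kind of sequence that marks this list. The pair of GAAA letters with 2 bases between them was found for 15 of 36 genes of the interferon response list with a promoter (41.7%). Over all genes tested with a promoter the share was 3.19%. It is printed 5′ to 3′ from RefSeq, build GRCm38.p6, chr19:34640639-34640888, plus strand, with its 2 matches, read on the opposite strand, in capitals.
Ifit1: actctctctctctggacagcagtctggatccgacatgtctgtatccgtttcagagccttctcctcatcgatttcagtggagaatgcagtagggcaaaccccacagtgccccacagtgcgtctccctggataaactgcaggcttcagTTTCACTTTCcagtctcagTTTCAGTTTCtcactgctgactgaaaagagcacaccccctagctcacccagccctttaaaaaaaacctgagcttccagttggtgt
The same letters were found for 2 of the 28 genes that rose (7.14%) and for 1 of the 22 that fell (4.55%) with a promoter.

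Cytokine genes lay higher in KO in both comparisons. Of 22 tested, 18 lay higher over 10 arrays and 16 over 7, with medians of 0.53 and 0.28, and 12 had an unadjusted p under 0.05 with a higher KO value in each (5.55% of all genes over 7 arrays). Over 7 arrays 1 had such a p with a lower value. None passed adjustment in limma. Osm, encoding oncostatin M of the interleukin-6 family, read 4.76, 5.29, 5.22, 4.73 and 5.36 on WT arrays 1 to 5 and 5.83, 5.68, 5.53, 5.63 and 5.43 on KO arrays 1 to 5. Its groups did not overlap, at 0.55 over 10 and 0.35 over 7 arrays (limma, adjusted p = 0.237 and 0.179). Tnfsf4, encoding the T cell costimulator OX40L, lay at 0.81 and 0.39 (limma, adjusted p = 0.285 and 0.306). Il6 lay at 1.32 and 0.60, and Il12b, the p40 chain of interleukin-12, at 0.49 and 0.26. Acod1, the itaconate-producing enzyme of activated myeloid cells, read 5.68, 5.97, 6.22, 5.73 and 6.27 on WT arrays 1 to 5 and 6.67, 7.17, 6.52, 6.67 and 7.36 on KO arrays 1 to 5. No KO value fell within the WT range, and the difference was 0.90 over 10 and 0.81 over 7 arrays (limma, adjusted p = 0.161 and 0.0574).

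Costimulation and maturation genes had a much smaller median difference over 7 arrays than over 10. The 25 genes had a median of 0.59 over 10 arrays and 0.09 over 7. Cd69, an early activation marker, read 8.05, 9.52, 9.44, 7.18 and 9.72 on WT arrays 1 to 5 and 10.51, 10.49, 10.14, 10.07 and 10.28 on KO arrays 1 to 5. It was the 1 member to pass over 7 arrays (0.78, limma, adjusted p = 0.0239), and the KO values lay above all WT values over 10 (1.52, adjusted p = 0.285). WT arrays 1 and 4 read lowest for Cd69 as well, so that call is a description only. Cd70, the ligand of CD27, lay at 1.34 and 0.60 without passing (limma, adjusted p = 0.288 and 0.196). MHC class I presentation genes had medians of 0.12 and 0.01 over 17 genes and MHC class II presentation genes -0.04 and 0.05 over 12. Their members of smallest p were B2m (0.29 and 0.11), Erap1 (-0.38 and -0.25), Ciita (-0.51 and -0.11) and Ifi30 (0.14 and 0.16), none of which passed. Genes of cDC1 identity had medians of -0.17 and 0.04 over 28 genes, with Ifi205 at 0.27 and 0.17 and Plpp1 at -0.38 and -0.17. Itgae lay lowest of this list over 10 arrays (-1.08), while over 7 arrays no member lay below -0.36. Genes of the BCL2 family and apoptosis had medians of 0.21 and 0.05 over 21 genes, with the survival gene Bcl2 at 0.25 and 0.35 and the death gene Bbc3 at 0.29 and 0.11.

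Chaperone and unfolded protein response genes were split in direction. Of 26 tested genes, 12 lay higher over 10 arrays and 18 over 7, with medians of -0.01 and 0.07. Among 66 heat shock and DnaJ genes, a group formed after the values were seen, 42 lay higher over 10 arrays and 38 over 7, with medians of 0.05 and 0.03. Hspb1, a small heat shock protein, read 5.83, 6.02, 6.24, 5.38 and 5.93 on WT arrays 1 to 5 and 6.43, 6.69, 6.42, 6.61 and 6.69 on KO arrays 1 to 5. It rose by 0.54 over 7 arrays (limma, adjusted p = 0.0379), with no overlap over 10 (0.69, adjusted p = 0.163). Hspa1l, a member of the HSP70 family outside the list, rose by 0.68 over 7 arrays (limma, adjusted p = 0.0421; 1.15 and 0.25 over 10), while Bag3, a cofactor of HSP70, and Hspa1a lay at 0.33 and 0.57 without passing. Cct8 and Tcp1, subunits of the TRiC chaperonin, lay at -0.31 and -0.24. Genes of the immediate early response, a group known to be induced by digestion as well, had medians of 0.18 and 0.16 over 31 genes. Klf4 lay at 0.46 and 0.39 and Atf3 at 0.35 and 0.38 over 10 and 7 arrays, both without overlap over 10 (limma, adjusted p = 0.228, 0.0683, 0.229 and 0.154). The part of tissue digestion in these values was not tested.

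Markers of other cell types were read in the same arrays. Above the filter level (the 30th percentile) on all 10 arrays were 7 of 10 neutrophil markers, 12 of 17 monocyte and macrophage markers, 6 of 10 B cell markers, 6 of 15 T and NK cell markers, 7 of 9 plasmacytoid dendritic cell markers, 8 of 14 cDC2 markers and 5 of 7 erythroid and platelet markers. Of the defining markers, Ly6g of neutrophils, Cd79a of B cells, Ncr1 of NK cells and Adgre1 of macrophages lay below that level on all 10 arrays. Cd3e of T cells read 5.41 to 5.85 and Ighm of B cells 6.20 to 6.75. The median over the 10 neutrophil markers ranged from 5.61 to 7.77 on WT arrays and from 5.70 to 8.47 on KO arrays, highest on KO array 4, and S100a8, a calprotectin subunit, read 5.59, 7.46, 7.92, 7.29 and 7.33 on WT arrays 1 to 5 and 6.29, 8.11, 6.71, 9.0 and 7.4 on KO arrays 1 to 5. The genotypes overlapped in part: KO arrays 2 and 4 lay above every WT array and WT array 1 below every KO array, for S100a8 and for Ngp, a further granule protein. The differences over 10 arrays were 0.38 for S100a8 and 0.43 for Ngp (limma, adjusted p = 0.742 and 0.714). Median levels of plasmacytoid dendritic cell markers were 5.69 to 6.05 on WT and 5.89 to 6.10 on KO arrays, and those of 14 cDC2 markers 4.83 to 5.19 and 4.95 to 4.98. For monocyte and macrophage markers the ranges were 5.48 to 6.25 and 5.71 to 6.30, for B cell markers 5.36 to 5.54 and 5.37 to 5.50, for T and NK cell markers 4.44 to 4.77 and 4.63 to 4.81, and for erythroid and platelet markers 5.21 to 5.79 and 5.45 to 5.76. Single members differed: Axl, a receptor of apoptotic cells on the macrophage list, rose by 0.58 over 7 arrays (limma, adjusted p = 0.0337; 1.52 and 0.293 over 10), and Sirpa and S100a4 of the cDC2 list lay at 0.57 and 0.56 without passing. The call for Axl is a description only, since WT arrays 1 and 4 read lowest for it (5.46 and 6.11). Of the 14 tested monocyte and macrophage markers, 9 lay higher and 5 lower over 10 arrays. Lyz2 lay lowest (-0.94), with 8.18, 6.46, 6.17, 8.49 and 6.28 on WT arrays 1 to 5 and 5.65 to 6.59 on KO arrays. Cd14 had 8.17, 6.89, 6.87, 8.73 and 6.84 on WT arrays 1 to 5 and 6.49 to 6.97 on KO arrays. Both were highest on WT arrays 1 and 4. Ms4a1, encoding CD20 of B cells, lay lower in KO (-0.48 over 10 arrays, limma, adjusted p = 0.153) and Cd22 lay higher (0.29). Further members of smallest p were C1qc (0.23), Tcf4 (0.47), Ccr9 (-0.50), Thy1 (0.26), Itga2b (0.32) and Ppbp (0.50). The part of other cells in the results above was not tested.

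The KO difference after poly IC was set against that of resting cDC1 (5 Mycl+/+ and 5 MyclGFP/GFP arrays of a separately titled set), in 1 model over both sets. Stimulus and set cannot be told apart in this comparison. For the difference between the KO effects, 3 of 14665 genes (0.0205%) passed: Adam23, Gzmb and Adgrf5. Adam23 read 10.17, 10.17, 9.96, 10.16 and 10.34 on resting WT arrays and 10.32, 10.34, 10.31, 10.27 and 10.24 on resting KO arrays, which overlapped, and its lower KO level was found in the poly IC set (difference of effects -0.85 ± 0.11, limma, adjusted p = 0.00497). Gzmb did not pass the filter on low values at rest, where a lower KO level could not have shown. It read 4.40, 4.34, 4.41, 4.34 and 4.52 on WT and 4.46, 4.24, 4.26, 4.35 and 4.39 on KO arrays there, with no higher KO level. Its difference of effects of 1.14 ± 0.18 (limma, adjusted p = 0.0218) thus sets the poly IC difference against a probe set at background. Adgrf5, an adhesion receptor of endothelium, lay below the filter level on all 10 poly IC arrays (3.85 to 4.60) and differed by -1.44 at rest, so its difference of 1.45 ± 0.24 (limma, adjusted p = 0.0316) came from the resting arrays. Gzmb and Adgrf5 lost their call in 8 and 12 of the single-array omissions, and Adam23 in none. The next genes, Ccl4, Mmp19 and Acod1, had an adjusted p of 0.0533 each in limma, with differences of 0.84, 0.93 and 1.07.

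Without WT arrays 1 and 4 and KO array 3 the number of genes with different KO effects was 54 (0.368%). Iars fell after poly IC and not at rest, where its difference was 0.04 (difference of effects -0.69 ± 0.09, limma, adjusted p = 0.000917). Tars fell in both states and by more after poly IC (-1.02 against -0.44; difference of effects -0.58, adjusted p = 0.0312). Myc lay higher in KO in both states and by less after poly IC, at 0.40 against 1.18 at rest (difference of effects -0.78, limma, adjusted p = 0.0451). Hspb1 and Hspa1l rose after poly IC and lay lower at rest (-0.48 and -0.63; differences of effects 1.02 and 1.31, limma, adjusted p = 0.0312 and 0.0101). With all arrays kept, none of these genes passed. The differences of effects were then -0.87 for Iars, -0.49 for Tars, -0.78 for Myc, 1.17 for Hspb1 and 1.78 for Hspa1l. Their adjusted p-values in limma were 0.121, 0.355, 0.0789, 0.0627 and 0.0731, in that order. Ifnb1 was also among the 54, but it did not pass the filter on low values at rest (4.11 to 4.48), so no size is given. Cd14, the lipopolysaccharide coreceptor, differed by 1.37, from -1.42 at rest to -0.05 after poly IC (limma, adjusted p = 0.000322). The value of -0.05 depends on leaving out WT arrays 1 and 4, which read 8.17 and 8.73 for Cd14, above every KO array (6.49 to 6.97). The other WT arrays read 6.84 to 6.89, so with all arrays kept Cd14 lay lower in KO after poly IC as well.

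At rest, on arrays that did not enter their choice, 7 of the 22 tested genes that fell after poly IC (Mycl not counted) were also lower with an adjusted p under 0.05 (Bola2, Ndufs5, Rtcb, Snhg16, Tars, Tgfbi and Thrap3), and 0 were higher. Over all genes tested in both states, 2.37% were lower and 3.86% higher at rest in this sense, and 6.14% of the 14012 genes tested at rest passed in either direction. Of the 36 tested genes that rose, 14 were also higher at rest, among them Fcer1g (0.83, limma, adjusted p = 0.000699), Fgr (0.93), Emb (1.17), Slc2a1 (0.52) and Cd69 (0.52), and 1, Hspa1l, was lower. Group medians at rest were -0.13 for cytosolic ribosomal proteins, -0.13 for ribosome biogenesis and -0.13 for aminoacyl-tRNA synthetases, beside -0.13, -0.18 and -0.23 over 7 arrays after poly IC.

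**Figure D5:**
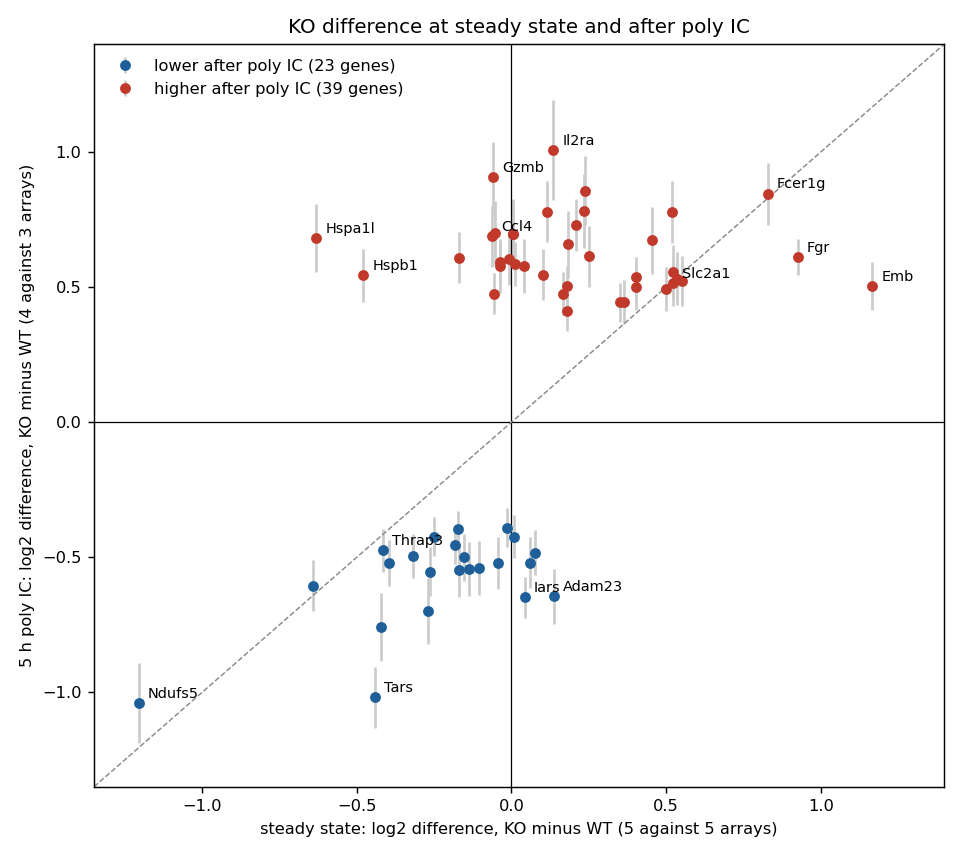
Log2 difference (KO minus WT) at steady state on the horizontal axis and over 7 arrays after poly IC on the vertical axis, for the 62 genes other than Mycl that passed after poly IC, 4 of which did not pass the filter on low values at steady state; vertical bars are SE, the dashed line marks equal differences. Ndufs5, Fcer1g and Slc2a1 lie near the line, Gzmb, Iars and Adam23 lie near 0 at steady state, and Hspa1l and Hspb1 change sign.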

How the data were processed

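The comparison holds 10 arrays, 5 WT and 5 KO, grouped by their titles and genotypes, with 10 resting arrays for 1 comparison. The deposited values are log2 levels per transcript cluster, made by the authors with RMA in Affymetrix Expression Console, per the submitters' processing notes; no version is stated there. The study's design text names ERCC spike-ins added by cell count, and RMA levels scale each array to the others, so total RNA per cell is not measured. Arrays carry no read depth; the number of arrays limits the precision.

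Of 35556 clusters, 21789 carried 1 gene symbol in the platform annotation, 1621 several and 12146 none listed. The clusters named 19938 genes, 999 of them by several clusters, of which the one of highest mean over all arrays was kept. Genes above the 30th percentile of their array on at least 5 of the 10 arrays were tested (14033). Differences were tested with limma 3.58.1 in R 4.3.3 (lmFit, eBayes, Benjamini-Hochberg, threshold 0.05); the steady-state comparison added an interaction term over both sets. Scripts were tested on simulated data. Across the 10 arrays the lowest pair correlation was 0.972 and no 2 arrays were identical. Promoters came from RefSeq, GRCm38.p6.

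The members, the 34 gene lists (936 genes, 806 tested) and the omission of 3 arrays were chosen with earlier results of these data known. Named by rule were the MYC and MAX network, the 8 genes of smallest p in each direction, 2 members of smallest p of each list, genes past the test near Mycl, the 6 of smallest p for the difference of effects and the 3 interferon-stimulated genes of largest spread. All other genes named, including those past the test over 7 arrays, were chosen after their values were seen. Alternatives were another filter, averaging clusters, quantile normalisation, array weights, trend and robust moderation, all 8 groups of the study in 1 fit, a replicate block and leaving out arrays.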

Additional observations from a re-analysis of the deposited data

Results flagged for a closer look

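In 10 of 192 groups of 5 values (96 named genes in 2 genotypes, 5.21%), 1 array stood apart from the other 4 by Dixon's criterion, where chance gives about 1 in 20. Of the 10, 4 were on KO array 3: Mycl at 8.87 (the others 5.52 to 6.14), Iars at 8.65 (8.04 to 8.13), Timm10 at 7.27 (6.72 to 6.84) and Mga at 7.37, below the others (7.65 to 7.74). A further 3 were on WT array 1: Cdc20 at 8.13 (7.67 to 7.78), Ms4a1 at 6.13 (5.65 to 5.78) and S100a8 at 5.59, below the others (7.29 to 7.92). The remaining 3 were Atf3 on KO array 2 at 10.59 (10.14 to 10.25), Cd226 on KO array 1 at 7.27 (6.55 to 6.68) and Ifi30 on KO array 5 at 12.19 (11.79 to 11.89).

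A set of 3 genes had a KO effect that differed between poly IC and steady state by the limma test of that difference: Adam23 (-0.85), Gzmb (1.14) and Adgrf5 (1.45). Gzmb did not pass the filter on low values at steady state, and Adgrf5 lay below its level after poly IC.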

How the results depend on the processing

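Over 10 arrays the count of genes past the test was 0 in limma under the 50th percentile filter, averaged clusters, quantile normalisation and trend and robust moderation. It was 1 without a filter (Elavl4), 72 with array weights, which gave WT arrays 1 and 4 weights of 0.201 and 0.293, and 1910 with all 8 groups of the study in 1 fit, whose spread comes mostly from other arrays. Leaving out WT arrays 1 and 4 gave 11, leaving out KO array 3 as well gave 63, and leaving out 1 array at a time gave 0 to 2. Of the 72 genes, 35 were among the 63 (48.6% and 55.6%). For the difference of effects the count of 3 became 6 with the 50th percentile filter, 74 with array weights, 9 with trend and robust moderation, 41 without WT arrays 1 and 4 and 54 without the 3 arrays. It ranged from 1 to 30 with 1 array left out, the highest without WT array 5. The cause of these differences was not tested.

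With the replicate number as a block, the counts were 1 (Ifnb1, limma, adjusted p = 0.0272) and 2 (Ccl4 and Ifnb1, none of the 3; Adam23 had an adjusted p of 0.0538). The labels give no pairing, and arrays of the same number had correlated deviations of -0.26, 0.35, -0.36, 0.21 and -0.10, with 1 of 5 WT arrays closest to its own number, so they share only a number.

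Signs turned for values near 0: without WT arrays 1 and 4 for Max (-0.0069), Mlx (0.00075), Mycn (0.0229), Ngp (-0.0653) and S100a8 (-0.0703), without the 3 arrays for Mlxipl (-0.0107) and Mycn (0.0181), with quantile normalisation for Mxd3 (0.0241) and with array weights for Mycn (0.0215). With 1 array left out the ranges were -0.0167 to 0.0826 for Mga, -0.113 to 0.0387 for Mlx, -0.0844 to 0.0108 for Mlxip, -0.0219 to 0.062 for Mnt, -0.0712 to 0.0329 for Mxd3 and -0.0604 to 0.0137 for Mycn.

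Precision is limited by 5 arrays a group. The genes said to have risen or fallen rest on 3 WT and 4 KO arrays and on leaving out arrays by their measured levels.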
